A study of Mus musculus with 12 samples.

Results

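The Cyp2 family of cytochromes P450 was described in livers of obese C57BL/6 mice with and without the microbial metabolite 4-hydroxyphenylacetic acid (4-HPAA), a small phenolic acid. All 12 samples are from mice made obese on a high-fat diet, with steatotic livers. Of these, 6 received a scaffold pellet under the skin as control and 6 a pellet with 4-HPAA, and livers were taken after 6 weeks. Sex, age and dose are not in the labels. The samples are numbered 1 to 6 in each group with nothing said on whether each is a separate mouse, and a p-value here reflects only how far those samples spread. The Y-linked genes Ddx3y, Eif2s3y, Kdm5d and Uty were read in every library, with Ddx3y between 453 and 2092.

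Members are the protein-coding genes whose symbol is Cyp2, 1 letter and a number in the GENCODE M21 annotation of GRCm38. They are 33 of the 13267 genes in the deposited table, out of 48 such genes in the annotation. The other 15, among them Cyp2a4, Cyp2b10 and Cyp2b13, were not analysed here. Of the 33 members, 32 reached 10 in 6 or more libraries and were tested. The exception was Cyp2t4. Values are normalised read counts as deposited. A difference is 4-HPAA minus control in log2(value + 1), a scale on which low genes appear to change less than they do.

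Cytochromes P450 are heme enzymes of the endoplasmic reticulum that insert 1 oxygen atom into a substrate, using electrons passed on by the reductase Por. The Cyp2 family is the largest P450 family of the mouse and lies in gene clusters, with each letter naming a subfamily of close relatives. In liver its members oxidise drugs and other foreign compounds, steroids, bile acids and fatty acids such as arachidonic acid. Many depend on the hepatocyte factor HNF4A and on the nuclear receptors CAR (Nr1i3) and PXR (Nr1i2). Several differ between male and female mice under the control of growth hormone: Cyp2d9 is the classic male gene, and Cyp2b9 and Cyp2c39 are higher in females.

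No Cyp2 gene passed the test across all genes, and differences went both ways. At an unadjusted p under 0.05, Cyp2a22, Cyp2s1, Cyp2c39 and Cyp2c38 were lower in 4-HPAA livers, by −2.63 to −1.11 in log2, and Cyp2d11, Cyp2c70, Cyp2d9, Cyp2d40, Cyp2f2 and Cyp2u1 higher, by 0.32 to 1.23. Cyp2b9 had a large difference too, of −2.19, with a spread to match. Cyp2e1, which held 50.9% of the family's summed value in controls, averaged 250435 ± 46819 in control livers and 260447 ± 27424 in 4-HPAA livers (SD, n = 6 each). In limma with Benjamini-Hochberg adjustment over 12720 genes, 0 of 32 members had an adjusted p under 0.05, as did 0 of all genes (0% called), and the smallest adjusted p of a member was 0.142. At an unadjusted p under 0.05 there were 6 members higher in 4-HPAA, 18.8% of those tested, where 7.26% of all genes were called higher. There were 4 members lower, 12.5%, where 7.56% of all genes were called lower. Of the 32, 18 had a positive and 14 a negative difference, with a median of 0.08, against −0.00092 over all genes tested. The median size of a difference, whatever its sign, was 0.29 for members and 0.13 for all genes tested. Only Cyp2d11 had groups that did not overlap, 1 member of 32, while 0.66% of all genes tested did not overlap.

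**Figure D1:**
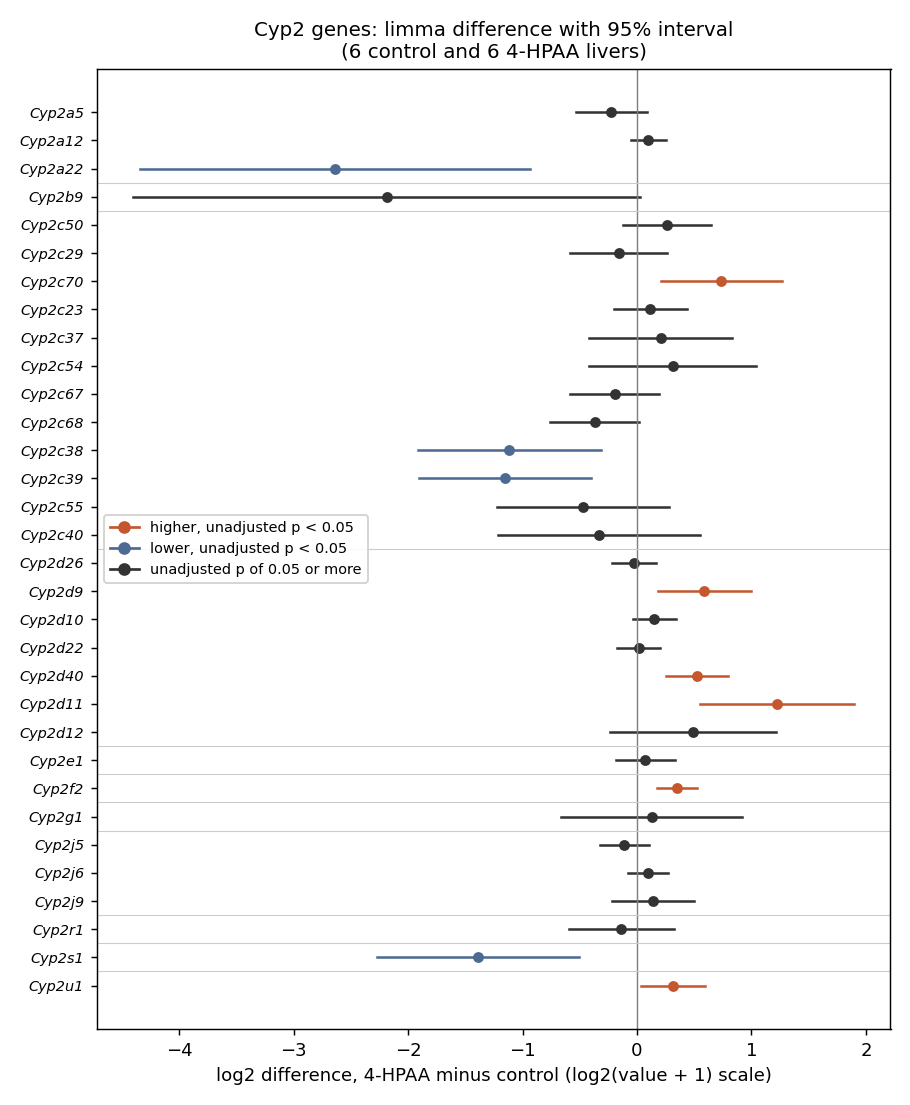
Difference of each tested Cyp2 gene (x axis, 4-HPAA minus control, log2(value + 1) scale) with its 95% interval from limma, grouped by subfamily and ordered by level. Of the 32 genes, 6 lie on the higher side (orange) and 4 on the lower side (blue) at an unadjusted p under 0.05, and none passes after adjustment over all genes.

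The promoters of a few members are shown first. Some close paralogs with similar promoters stood at different levels, or were not all at an unadjusted p under 0.05. Differences between genes were not tested. They are from RefSeq (GRCm38.p6), cover bases before the annotated start, and matched 27 of the 33 members by symbol. For Cyp2d9 and Cyp2c29 the RefSeq start lies inside the gene as GENCODE M21 draws it, 18940 and 17680 bases from its first base, while for the other 25 the starts lie within 388 bases of each other. In 300-base windows, from 250 before to 50 after the start, the promoters of Cyp2d9 and Cyp2d11 were 84.5% identical, those of Cyp2d9 and Cyp2d10 82.9%, and those of Cyp2a12 and Cyp2a22 84.2%, counting gaps as differences. The first set shows 100 bases upstream of the start of 5 of the 7 Cyp2d genes, those with a promoter in the table, around the letters TATAAA, which are in capitals where they were found on either strand. It is shown because Cyp2d9, Cyp2d11 and Cyp2d40 were on the higher side in 4-HPAA livers, while Cyp2d10 differed by 0.15 ± 0.09 and Cyp2d26 by −0.03 ± 0.09 (SE).
Cyp2d9 (chr15:82452262-82452361, plus strand): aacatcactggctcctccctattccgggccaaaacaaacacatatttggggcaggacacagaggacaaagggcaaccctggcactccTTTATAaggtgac
Cyp2d10 (chr15:82407195-82407294, minus strand): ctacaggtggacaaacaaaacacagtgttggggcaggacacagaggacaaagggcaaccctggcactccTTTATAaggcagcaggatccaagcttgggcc
Cyp2d11 (chr15:82394023-82394122, minus strand): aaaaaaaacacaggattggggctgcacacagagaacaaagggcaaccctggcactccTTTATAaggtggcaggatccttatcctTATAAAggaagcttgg
Cyp2d40 (chr15:82764173-82764272, minus strand): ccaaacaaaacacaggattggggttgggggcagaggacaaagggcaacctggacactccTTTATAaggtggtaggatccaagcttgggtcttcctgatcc
Cyp2d26 (chr15:82794271-82794370, minus strand): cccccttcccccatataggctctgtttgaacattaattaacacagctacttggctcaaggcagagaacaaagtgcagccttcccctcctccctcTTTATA

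The second set shows the last 100 bases before the start, with TATAAA in capitals, for Cyp2a12 and Cyp2a22, neighbours on chromosome 7 of which only Cyp2a22 was among the 10 members at an unadjusted p under 0.05.
Cyp2a12 (chr7:27028990-27029089, plus strand): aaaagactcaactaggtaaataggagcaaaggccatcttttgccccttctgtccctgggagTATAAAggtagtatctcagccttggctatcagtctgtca
Cyp2a22 (chr7:26939387-26939486, minus strand): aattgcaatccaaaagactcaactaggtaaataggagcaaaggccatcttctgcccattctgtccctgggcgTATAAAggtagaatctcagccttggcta

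The third set shows bases 250 to 151 before the start of 3 related Cyp2c genes, with the FOXA letters TGTTTAC in capitals. The letters were found in Cyp2c38 and Cyp2c39, which were on the lower side in 4-HPAA livers, and not in the window of Cyp2c29, which differed by −0.16 ± 0.20 (SE). Cyp2j5 held them too, and differed by −0.11 with an interval that includes 0. They were not in the windows of Cyp2a22 and Cyp2s1, which were also on the lower side. The promoters of Cyp2c38 and Cyp2c39 were 72.9% identical, and that of Cyp2c29 was 70.8% identical to the first and 69% to the second.
Cyp2c29 (chr19:39286835-39286934, plus strand): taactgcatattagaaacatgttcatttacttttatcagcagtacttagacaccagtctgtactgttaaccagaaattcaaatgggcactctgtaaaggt
Cyp2c38 (chr19:39463226-39463325, minus strand): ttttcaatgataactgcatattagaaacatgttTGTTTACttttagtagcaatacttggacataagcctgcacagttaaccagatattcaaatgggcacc
Cyp2c39 (chr19:39510572-39510671, plus strand): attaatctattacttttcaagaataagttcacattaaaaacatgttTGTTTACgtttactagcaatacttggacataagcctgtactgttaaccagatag

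The last sequences are those of Cyp2f2 and Cyp2b9, the member of smallest p and the only Cyp2b gene analysed, from base 250 before the start, up to base 47 before it for Cyp2f2, where GENCODE begins the transcript. The C/EBP letters TTGCNNAA are in capitals in Cyp2b9, and Cyp2f2 held none of the motifs searched.
Cyp2f2 (chr7:27119705-27119908, plus strand): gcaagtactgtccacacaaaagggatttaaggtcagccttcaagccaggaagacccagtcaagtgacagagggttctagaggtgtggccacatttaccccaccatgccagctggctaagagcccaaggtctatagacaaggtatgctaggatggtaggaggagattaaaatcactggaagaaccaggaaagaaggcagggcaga
Cyp2b9 (chr7:26173159-26173408, plus strand): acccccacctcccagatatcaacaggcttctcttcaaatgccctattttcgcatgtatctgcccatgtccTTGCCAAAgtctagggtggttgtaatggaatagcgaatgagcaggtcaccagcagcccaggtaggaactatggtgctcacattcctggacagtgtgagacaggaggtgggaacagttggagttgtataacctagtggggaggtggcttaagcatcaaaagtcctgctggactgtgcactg

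Searched on both strands of the 300-base windows, overlaps between motifs allowed, TATAAA was in 17 of 27 member promoters and in 13.6% of all 32851 promoters. The HNF4A letters CAAAGTCC were in 5 of 27, those of Cyp2a5, Cyp2c40, Cyp2c67, Cyp2c68 and Cyp2c70, and in 1.42% of all. The HNF6 letters ATCAAT were in 5 (7.54% of all), the C/EBP letters in 6 (10.8%) and TGTTTAC in 3 (3.65%). No member window held the STAT5 letters TTCNNNGAA (8.3% of all), the DR4 element of CAR, a spaced direct repeat of AGGTCA (0.0152%), or the D-box TTATGTAA (0.938%). These are matches of letters, not sites.

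In the table as a whole, library totals ran from 22869813 to 25255447. On the first principal component of the 12 livers, with 31.5% of the variance, 4-HPAA replicates 4 and 6 scored −10.94 and −1.15, within the control range of −31.52 to 2.02. On the second, with 20.6%, 4-HPAA replicate 3 stood apart at 56.45 from the other 11, between −17.03 and 7.52. Where these libraries bear on a named member, its difference without them is given beside it. Hepatocyte markers were abundant in all libraries, summing over 9 genes to between 2423690 and 3168314. In bulk tissue, fewer cells of a type and less RNA per cell cannot be told apart.

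Per length of exon, the Cyp2 genes spanned a wide range of levels in the same livers. Levels here are values divided by the merged length of all exons annotated for a gene in GENCODE M21. They are scaled to sum to 1000000 over all genes of known length in each library. Cyp2e1, which oxidises ethanol, acetone and small solvents in hepatocytes near the central vein, was highest in controls at 12087 ± 1979 (SD, n = 6). Cyp2d26 followed at 1798 ± 148, then Cyp2a5, the coumarin hydroxylase, at 1359 ± 234, Cyp2d9 at 1350.0 ± 367, Cyp2d10 at 1163 ± 101, Cyp2f2 at 959 ± 52.6 and Cyp2j5 at 743 ± 61.9. Cyp2a5, Cyp2d9 and Cyp2d10 differed from each other by less than their spread. Of the 12 Cyp2c genes, 8 formed a band, from 230.3 ± 41.9 for Cyp2c68 to 489.8 ± 119 for Cyp2c50, in which neighbours also lay within their spread. At the low end, Cyp2d11, Cyp2s1, Cyp2d12 and Cyp2t4 stood at 0.62 ± 0.23, 0.59 ± 0.27, 0.41 ± 0.15 and 0.35 ± 0.11, within their spread of one another.

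**Figure D2:**
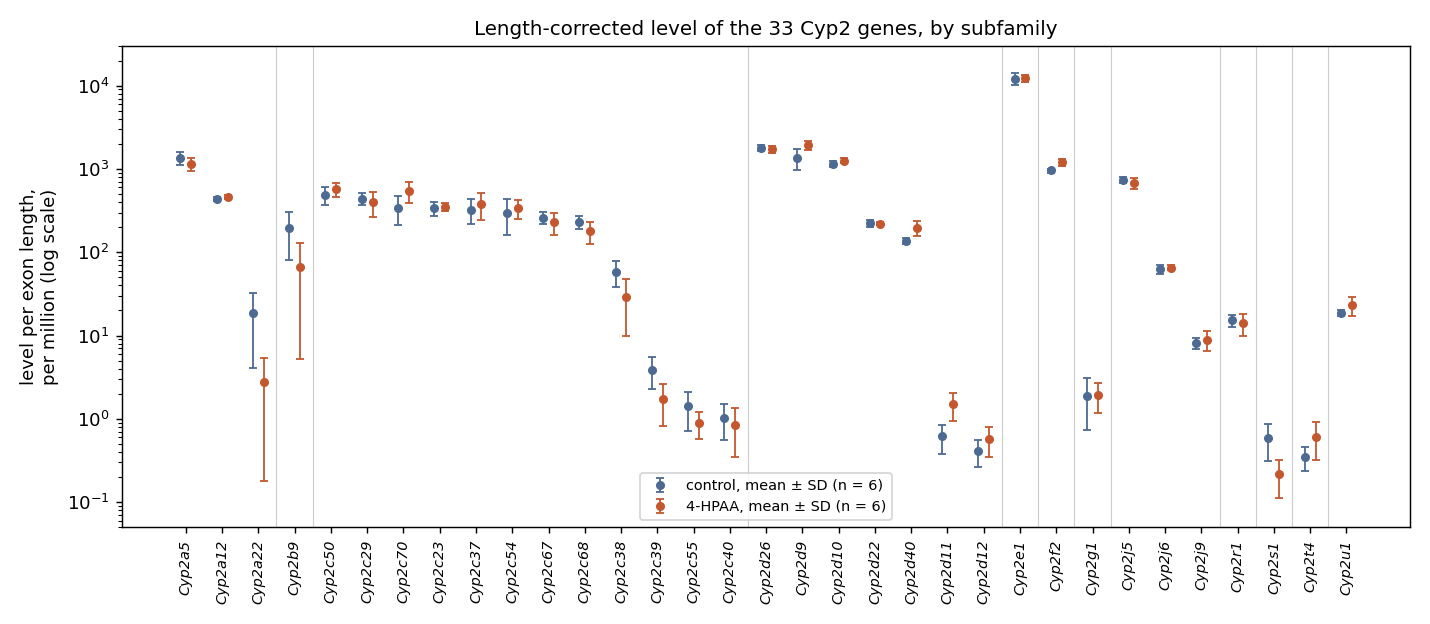
Length-corrected level of the 33 Cyp2 genes (y axis, summing to 1000000 over all genes in a library, log scale) in controls and 4-HPAA livers, as mean ± SD (n = 6 each), by subfamily. Cyp2e1 stands highest at 12087 in controls, and Cyp2t4 lowest at 0.35.

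Summed over the family, values came to 490533 ± 76726 in control livers and 523083 ± 31634 in 4-HPAA livers (SD, n = 6 each), or 1.72 to 2.32% and 1.88 to 2.26% of a library's total. The sums of Cyp2d genes were 94753 ± 16134 and 112916 ± 9211, those of Cyp2c genes 60908.5 ± 12963 and 66363 ± 12958, and those of Cyp2a genes 42017 ± 5957 and 38725 ± 4819. The Cyp2j sums were 19081 ± 1467 and 18117.5 ± 2430. The Cyp2d sum was 19.2% higher in 4-HPAA livers and the family sum 6.64% higher, and in both the groups overlapped. Under the other scalings tried the family sum was 2.49 to 6.40% higher. No test was made on sums.

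**Figure D3:**
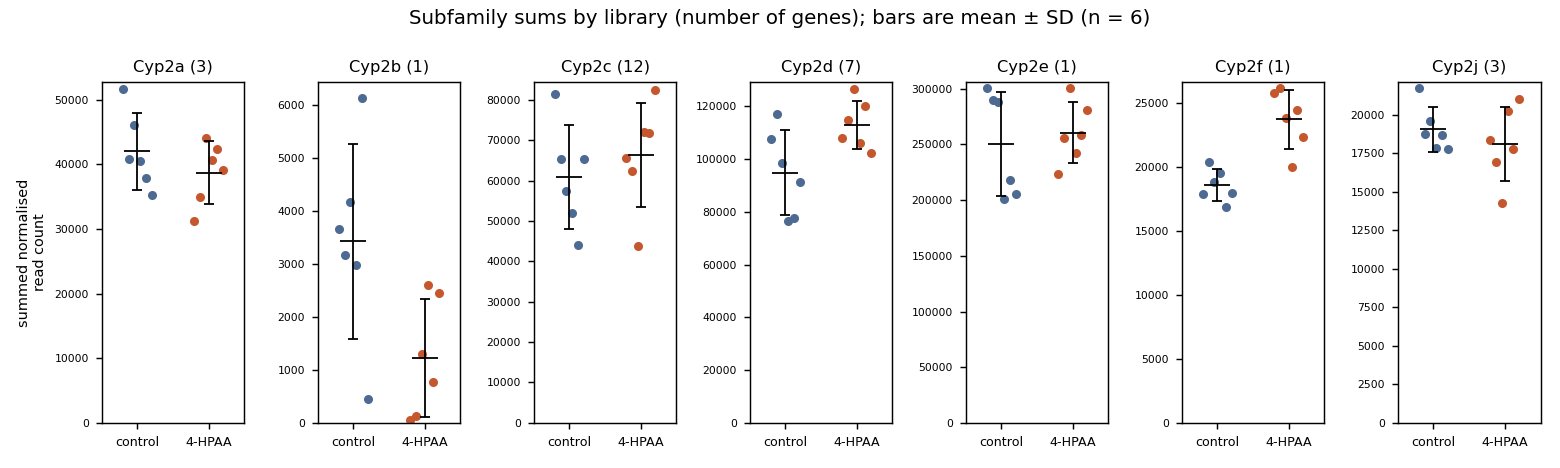
Summed normalised read count (y axis, from 0) of each Cyp2 subfamily with a large sum, by library, with mean ± SD (n = 6 each) and the number of genes in brackets. Groups overlap in every panel, and Cyp2b, which is Cyp2b9 alone, has the widest relative spread.

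Cyp2f2, of chromosome 7 (27119909 to 27133660), oxidises naphthalene and marks hepatocytes near the portal vein. Its values in control replicates 1 to 6 were 17878, 20384, 18872, 19521, 16918 and 18010, and in 4-HPAA replicates 25776, 26168, 23823, 19990, 24434 and 22331. Of the 6 4-HPAA livers, 5 lay above every control, and replicate 4 lay inside the control range. Group means were 18597 ± 1249 and 23754 ± 2305 (SD, n = 6 each). The log2 difference was 0.35 ± 0.08 (SE), with an unadjusted p of 0.000594 and an adjusted p of 0.142 in limma, and an exact two-sided permutation p of 0.00433. The difference stayed between 0.29 and 0.40 over 23 alternatives. Without 4-HPAA replicate 4 its limma adjusted p was 0.0269, in a fit where 193 of all genes had an adjusted p under 0.05. With any other library left out the limma adjusted p was 0.117 to 0.296. Cyp2f2 shares no 75-base word with the transcripts of any other annotated gene.

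Cyp2d genes, in a cluster on chromosome 15, encode enzymes related to the human drug oxidase CYP2D6. Cyp2d9 is a steroid 16-alpha-hydroxylase of male liver. Its control values were 42910, 47511, 35635, 19674, 25038 and 37085 in replicates 1 to 6, and its 4-HPAA values 51892, 54378, 55858, 44555, 55386 and 39374. Control replicates 4 and 5 were the lowest of the 12, and 4-HPAA replicates 4 and 6 lay below the highest control. Group means were 34642 ± 10556.5 and 50240.5 ± 6757 (SD, n = 6 each). The log2 difference was 0.59 ± 0.19 (SE) (limma, unadjusted p = 0.00803, adjusted p = 0.205), and 0.62 or 0.66 without 4-HPAA replicate 4 or 6. Without control replicate 4 or 5 it was 0.44 or 0.51.

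Cyp2d40 was at 2680, 2572, 2338, 2004, 2331 and 2405 in control replicates 1 to 6, and at 3329, 4081, 3893, 2615, 4308 and 2737 in 4-HPAA replicates. All but 4-HPAA replicate 4 lay above every control. Its log2 difference was 0.53 ± 0.13 (SE), with an adjusted p of 0.142 in limma over all 12 libraries and 0.031 without 4-HPAA replicate 4. With any other library left out the limma adjusted p was 0.111 to 0.297. Cyp2d40 (82759833 to 82764183) shares 5.07% of its 75-base words with other genes, against 12.9% for Cyp2d9.

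Cyp2d11 was near the lower limit of the table, with 13, 9, 12, 6, 4 and 13 in control replicates 1 to 6 and 18, 33, 22, 15, 35 and 16 in 4-HPAA replicates. Every 4-HPAA liver was above every control. Its log2 difference was 1.23 ± 0.32 (SE) (limma, adjusted p = 0.148; exact two-sided permutation p = 0.00216, the smallest the 924 splits allow). The value of this gene is uncertain: it shares 18.1% of its 75-base words with Cyp2d10, whose control mean was 18397, and its own mean was 3647 times below that of Cyp2d9. Whether its count holds reads of these neighbours was not tested. Cyp2d12, equally low, differed by 0.49 ± 0.34 (SE).

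Per length, the most abundant Cyp2d gene in controls was Cyp2d26, with 1792 annotated exon bases. Cyp2d9 had the higher control mean, 34642, over 2658 annotated exon bases, so their order depends on the annotated lengths. Cyp2d26 was at 30888 ± 3169 in control livers and 30354 ± 3179 in 4-HPAA livers (SD, n = 6 each). Its difference was −0.03, with a 95% interval of −0.22 to 0.17. The values of Cyp2d10, Cyp2d12 and Cyp2d22 are given after they were seen. For Cyp2d22 the interval was −0.17 to 0.20 and for Cyp2d10 −0.04 to 0.34. These 3 genes lie in the same cluster as Cyp2d9 and Cyp2d40, whose intervals were 0.18 to 1.00 and 0.26 to 0.80. No test of the difference between genes was made.

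Cyp2a22 was lower in 4-HPAA livers, with a very wide spread. Its control values were 310, 300, 685, 1183, 1016 and 62 in replicates 1 to 6, and its 4-HPAA values 28, 17, 79, 256, 69 and 112. Control replicate 6 was as low as the 4-HPAA livers, while control replicates 4 and 5 were highest. Group means were 593 ± 443 and 93.5 ± 86.8 (SD, n = 6 each), 6.34 times lower with 4-HPAA. The log2 difference was −2.63 ± 0.78 (SE) (limma, unadjusted p = 0.00559, adjusted p = 0.195). Its neighbour Cyp2a12, a steroid 7-alpha-hydroxylase whose promoter is shown above beside it, ran from 12995 to 15426 in controls and from 14063 to 17188 with 4-HPAA. Its difference was 0.10, with an interval of −0.05 to 0.25. Cyp2a12 and Cyp2a22 share 9.18% and 9.21% of their 75-base words, all with each other.

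Cyp2a5, which also activates nicotine-derived nitrosamines, was at 35916, 25623, 30260, 24650, 23495 and 22155 in control replicates 1 to 6. In 4-HPAA replicates it was at 15765, 20337, 26722, 24978, 26369 and 24989, so that replicates 1 and 2 lay below every control. The difference was −0.22, with an interval of −0.54 to 0.09. It was −0.12 without 4-HPAA replicate 1 and −0.14 without control replicate 1. Cyp2a5 shares 22.3% of its words with other genes, 15.7% with Cyp2a4, and the authors' counting could split reads between them.

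Cyp2b9, the female-biased and CAR-responsive gene of the Cyp2b cluster (chromosome 7, 26173411 to 26210661), was at 3671, 3179, 4181, 2973, 6129 and 456 in control replicates 1 to 6 and at 50, 138, 1301, 2606, 769 and 2462 in 4-HPAA replicates. Control replicate 6 was an exception among controls, and 4-HPAA replicates 4 and 6 were close to the other 5 controls. The log2 difference was −2.19 ± 1.01 (SE), with an interval of −4.40 to 0.03 (limma, unadjusted p = 0.0527, adjusted p = 0.344). Without control replicate 6 the difference was −2.70, and without 4-HPAA replicate 4 or 6 it was −2.61 or −2.60. Without 4-HPAA replicate 1 or 2, the lowest livers, it was smaller, at −1.48 or −1.77. Means were 3431.5 ± 1845 and 1221 ± 1115 (SD, n = 6 each).

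Of the Cyp2c genes, on chromosome 19, Cyp2c38 and Cyp2c39 were on the lower side. Cyp2c38, an arachidonic acid epoxygenase, was at 1590, 1316, 1917, 1794, 2062 and 733 in control replicates 1 to 6 and at 423, 421, 533, 1561, 516 and 1376 in 4-HPAA replicates. Control replicate 6 was the lowest control, and 4-HPAA replicates 4 and 6 lay inside the control range. Its difference was −1.11 ± 0.37 (SE) (limma, unadjusted p = 0.00982, adjusted p = 0.206). Without 4-HPAA replicate 4 or 6 it was −1.35 or −1.31, and without replicate 3 −1.04.

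Cyp2c39, a retinoic acid hydroxylase, was at 60, 59, 78, 76, 101 and 27 in control replicates and at 26, 18, 14, 58, 39 and 28 in 4-HPAA replicates. Its lowest control was again replicate 6 and its highest 4-HPAA liver again replicate 4. The difference was −1.15 ± 0.35 (SE) (limma, unadjusted p = 0.00528, adjusted p = 0.194). The pair shares 1.86% and 2.98% of their 75-base words with each other.

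Cyp2c70, which turns chenodeoxycholic acid into the muricholic acids of mouse bile, was on the higher side. Control replicates 1 to 6 were at 8855, 4758, 5035, 5375, 4309 and 10674, and 4-HPAA replicates at 14969, 13025, 6976, 8476, 9091 and 10794. Only 4-HPAA replicates 1, 2 and 6 lay above the highest control, which was replicate 6. The difference was 0.74 ± 0.24 (SE) (limma, unadjusted p = 0.00947, adjusted p = 0.206). Cyp2c70 shares no 75-base word with another gene. Its promoter window holds the HNF4A letters in capitals and TATAAA, read on the other strand, nearer the start.
Cyp2c70 (chr19:40187307-40187406, minus strand): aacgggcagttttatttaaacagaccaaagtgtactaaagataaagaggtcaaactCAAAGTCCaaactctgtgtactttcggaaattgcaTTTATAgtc

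Cyp2c50, the highest Cyp2c gene per length, averaged 13785.5 ± 3805 in control livers and 16199 ± 2771 in 4-HPAA livers (SD, n = 6 each). The difference was 0.26, with an interval of −0.12 to 0.65. It was 0.36 without 4-HPAA replicate 3 and 0.15 without control replicate 4. The next 2 genes were named after their values were seen. Cyp2c37 and Cyp2c54, near copies of Cyp2c50, differed by 0.21 ± 0.29 and 0.31 ± 0.34 (SE). In Cyp2c50 and Cyp2c54, control replicates 4 and 5 and 4-HPAA replicate 3 were the 3 lowest of the 12, at 8939, 10223 and 11258 and at 2489, 2024 and 3475. Cyp2c37, Cyp2c50 and Cyp2c54 each share between 10.4% and 14.1% of their words with other genes.

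The other Cyp2c genes were named on the same terms. Cyp2c29, an arachidonic acid epoxygenase, differed by −0.16 and Cyp2c23, also called Cyp2c44, by 0.12, each with an interval that includes 0. Cyp2c67 and Cyp2c68 differed by −0.19 ± 0.18 and −0.37 ± 0.18 (SE), and share 36% and 28.5% of their words with other genes. Cyp2c40 and Cyp2c55, with means under 30 in both groups, differed by −0.33 ± 0.41 and −0.47 ± 0.35 (SE).

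**Figure D4:**
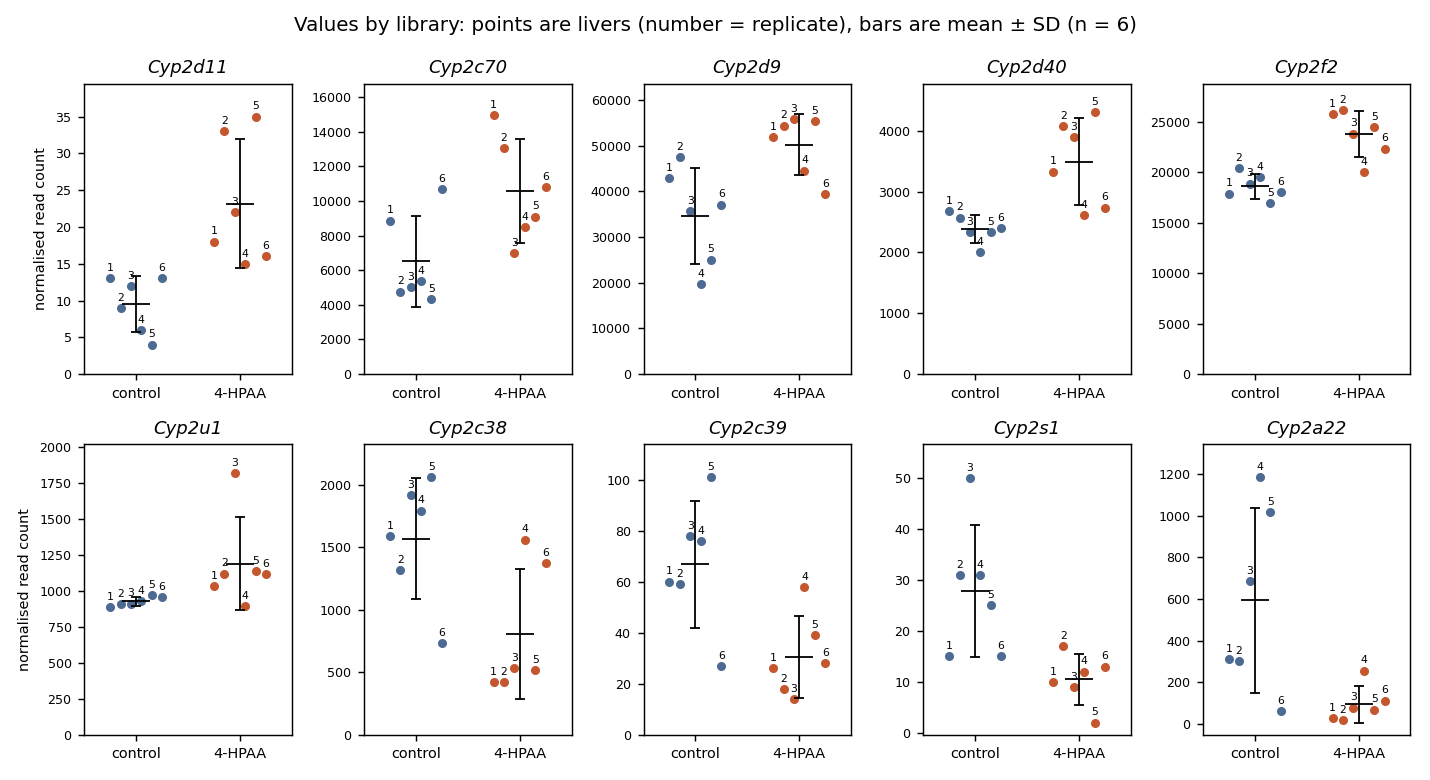
Normalised read count (y axis) of the 10 Cyp2 genes at an unadjusted p under 0.05, 1 point per liver with its replicate number, and mean ± SD (n = 6 each). Cyp2d11 alone has groups that do not overlap, and 4-HPAA replicate 4 lies within the control range for 8 of the 10 genes.

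The groups overlapped widely in Cyp2e1. Control replicates 1 to 6 were at 300323, 289952, 287788, 201214, 218216 and 205119, and 4-HPAA replicates at 223794, 256109, 300827, 242342, 258303 and 281309. Control replicates 1, 2 and 3 were high and replicates 4, 5 and 6 low, and of the 4-HPAA livers only replicate 3 lay outside the control range. The log2 difference was 0.07, with an interval of −0.19 to 0.33 (limma, unadjusted p = 0.564). Among controls, Kupffer cell markers were low where Cyp2e1 was high, with 11 genes summing to 3117, 3638 and 2791 in replicates 1 to 3 and to 7935, 7306 and 10996 in replicates 4 to 6. In 4-HPAA replicates 1 to 6 they summed to 5472, 4488, 6140, 4183, 6997 and 4306, where replicate 3, with the highest Cyp2e1, had the second highest sum. Between control and 4-HPAA livers, 0 of the 11 markers were called at an unadjusted p under 0.05, a count that does not compare controls with each other. The split among controls was not seen in these markers alone. Nr1i3 was at 2214, 2223 and 2281 in control replicates 1 to 3 and 1438, 1530 and 1419 in replicates 4 to 6. The part of these genes in the level of Cyp2e1 was not tested.

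Cyp2j genes, on chromosome 4, encode epoxygenases of arachidonic and linoleic acid. Cyp2j5, the main one of liver and kidney, averaged 16671 ± 1412 in control livers and 15537 ± 2279 in 4-HPAA livers (SD, n = 6 each). The difference was −0.11, with an interval of −0.33 to 0.10, and −0.04 without 4-HPAA replicate 3. Cyp2j6 differed by 0.10, with an interval of −0.08 to 0.27, and Cyp2j9 by 0.14, with an interval of −0.22 to 0.50. These 3 genes share no 75-base word with other genes.

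The remaining subfamilies have 1 gene each. Cyp2u1, of chromosome 3, oxidises long-chain fatty acids. It was at 889, 911, 914, 932, 973 and 961 in controls, the tightest spread of the family (coefficient of variation 3.44%), and at 1036, 1122, 1824, 895, 1142 and 1119 with 4-HPAA. Of the 4-HPAA livers, 5 lay above every control, with replicate 3 far above the rest and replicate 4 within the controls. The difference was 0.32 ± 0.13 (SE) over all libraries (limma, unadjusted p = 0.0282, adjusted p = 0.277). Without 4-HPAA replicate 3 it was 0.19 ± 0.07 (SE) (limma, unadjusted p = 0.0174), and in 4 of 23 alternatives its unadjusted p was 0.05 or more.

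Cyp2s1, an extrahepatic enzyme of retinoid oxidation, was low in all livers. It was at 15, 31, 50, 31, 25 and 15 in controls and at 10, 17, 9, 12, 2 and 13 with 4-HPAA. All 4-HPAA livers but replicate 2 lay below every control, and the difference was −1.39 ± 0.41 (SE) (limma, unadjusted p = 0.00457, adjusted p = 0.192).

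Cyp2r1, a vitamin D 25-hydroxylase, was at 311, 253, 336, 249, 302 and 392 in controls and at 308, 367, 131, 325, 294 and 311 with 4-HPAA. It was low in 4-HPAA replicate 3 alone. Its difference was −0.14, with an interval of −0.60 to 0.32, and 0.08 without that library. Cyp2g1, an olfactory enzyme, was at 16 to 85 in controls and 18 to 64 with 4-HPAA, a difference of 0.13 with an interval of −0.66 to 0.92. Cyp2t4, the untested member, was at 5, 4, 9, 5, 5 and 5 in controls and at 6, 10, 7, 15, 16 and 5 with 4-HPAA.

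Members also differed among libraries of 1 group. Of the 10 genes at an unadjusted p under 0.05, the number that lay beyond the control range was 10 in 4-HPAA replicate 1, 9 in replicate 2, 8 in replicate 3, 7 in replicate 5 and 6 in replicate 6, but 2 in replicate 4. These genes were picked by the same comparison, so the counts describe the livers and test nothing. Control replicate 6 was the lowest control for Cyp2a22, Cyp2b9, Cyp2c38, Cyp2c39 and Cyp2c55 and the highest for Cyp2c70. That library was also the lowest control for Cyp2a5, Cyp2a12, Cyp2d26 and Cyp2j5 and the highest for Cyp2r1, Cyp2j6 and Cyp2j9. None of those was at an unadjusted p under 0.05 in limma. It tied with control replicate 1 as the lowest for Cyp2s1 and as the highest for Cyp2d11. Saa1, an acute phase gene, was at 37622, 63934, 12759 and 27065 in 4-HPAA replicates 1, 2, 3 and 5, at 2844 and 2196 in replicates 4 and 6, and at 1270 to 2690 in controls. The part of this in the Cyp2 differences was not tested.

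**Figure D5:**
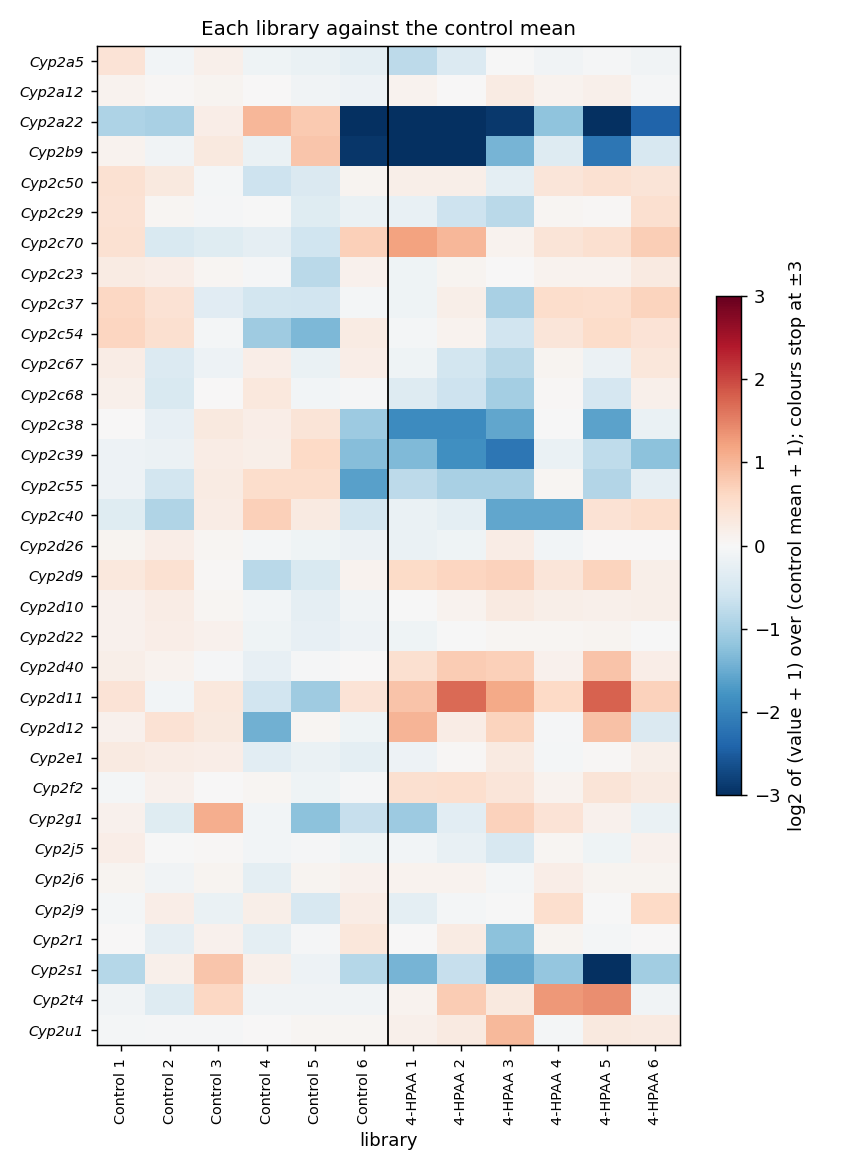
Each library (columns) against the control mean for the 33 Cyp2 genes (rows), as log2 of (value + 1) over (control mean + 1), with colours ending at 3 in either direction. Blue blocks for Cyp2a22, Cyp2b9, Cyp2c38 and Cyp2c39 run through 4-HPAA replicates 1, 2, 3 and 5 and control replicate 6, and are paler in 4-HPAA replicate 4. In 4-HPAA replicate 6 they are mixed, low for Cyp2a22 (112) and Cyp2c39 (28) and paler for Cyp2b9 (2462) and Cyp2c38 (1376).

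Members were also counted by lists of known biology, at a threshold where 7.26% of all genes were called higher and 7.56% lower. Of 8 tested genes listed as female-biased, 2 were lower and 0 higher at an unadjusted p under 0.05, with a median difference of −0.35. Of 5 listed as male-biased, Cyp2d9, Cyp2d10, Cyp2d11, Cyp2f2 and Cyp2u1, 4 were higher and 0 lower, with a median of 0.35, while the median of all genes tested was −0.00092. Of 12 genes listed as arachidonic acid epoxygenases 2 were lower, with a median of −0.01. Of 5 genes listed as CAR-inducible none was called in either direction, with a median of −0.22. Of 7 listed as pericentral 1 was higher, with a median of 0.21, and the 1 periportal gene is Cyp2f2. Among 6 tested genes listed as outside gene clusters or broad, 2 were higher (Cyp2f2 and Cyp2u1) and 1 lower (Cyp2s1), with a median of 0.10. That label is loose, as Cyp2f2, Cyp2g1 and Cyp2s1 lie near the Cyp2a and Cyp2b genes on chromosome 7. These lists overlap and were chosen with earlier results of these data known, so they are no independent evidence of a direction.

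Genes that serve or control the family were read beside it, against the same 7.26% of all genes called higher and 7.56% lower. Of 7 electron donors and their partners, 0 were higher and 2 lower at an unadjusted p under 0.05. Por averaged 14229 ± 2423 in control livers and 14481 ± 1546 in 4-HPAA livers (SD, n = 6 each), and differed by 0.04 ± 0.11 (SE). The lower pair were Pgrmc2 and Pgrmc1, membrane proteins that bind heme and P450s, at −0.40 ± 0.14 and −0.28 ± 0.12 (SE), and Cyb5b differed by −0.19 ± 0.09. Of 14 genes of heme synthesis and turnover, 2 were higher and 0 lower: Abcb10, a mitochondrial transporter, at 0.25 ± 0.09 and Slc25a38, a mitochondrial glycine carrier, at 0.17 ± 0.07. Urod differed by 0.12 ± 0.09 (SE).

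Of 32 tested regulators of Cyp2 genes, 2 were higher and 0 lower, and Ctnnb1 was among the higher at 0.19 ± 0.07 (SE). Nr1i3 was at −0.12 ± 0.14, Nr1i2 at −0.11 ± 0.10 and Hnf4a at 0.23 ± 0.13 (SE), none with an unadjusted p under 0.05. Of 23 targets of CAR and PXR outside the family, 11 were lower and 0 higher, with a median of −0.29, where 7.56% of all genes were called lower. Cyp3a11, the main PXR-induced P450, was at −1.41 ± 0.28, the organic anion uptake carrier Slco1a4 at −1.29 ± 0.31 and the exporter Abcc3 at −0.74 ± 0.21 (SE). None passed adjustment over all genes (limma, adjusted p = 0.103, 0.142 and 0.184). Of 10 genes that share substrates with epoxygenases or act on vitamin D, Cyp4f14 was higher at 0.33 ± 0.11 and Cyp4a14 lower at −2.07 ± 0.83, and Cyp4a10 was at −1.20 ± 0.58 (SE).

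Markers of cell types and zones moved in these livers too, and their part in the Cyp2 differences was not tested. The counts are at an unadjusted p under 0.05, at which 7.26% of all genes were called higher and 7.56% lower. Of 12 pericentral markers 4 were higher and 0 lower, among them Cyp1a2 at 0.76 ± 0.18, Slc13a3 at 0.67 ± 0.24 and Gulo at 0.38 ± 0.14 (SE), and the list summed to between 101603 and 156578 in controls and 131842 and 159300 with 4-HPAA. Of 11 periportal markers 2 were higher and 2 lower, the largest being Cdh1 at 0.78 ± 0.25 and Hsd17b13 at −0.51 ± 0.10 (SE). Of 9 hepatocyte markers 5 were higher, among them Hpx and Serpina1c at 0.58 ± 0.17 and 0.38 ± 0.14, and albumin was lower at −0.38 ± 0.10 (SE). Albumin is also on the periportal list and is counted there among the 2 lower genes. Of 11 stellate cell markers 7 were lower, with sums of 6866 to 10421 in controls and 4382 to 8188 with 4-HPAA. The smallest p-values there were of Col3a1, Reln and Col1a2, at −1.02 ± 0.22, −0.65 ± 0.14 and −0.94 ± 0.25 (SE). Of 10 endothelial markers 3 were lower, among them Flt1 at −0.33 ± 0.12, and of 8 cholangiocyte markers 1, Krt23, was lower at −2.02 ± 0.69 (SE). Of 4 adipocyte markers 3 were lower, with sums of 917 to 3653 and 527 to 1561, and control replicate 6 had the 917. The adipocyte-defining Adipoq, Lep and Plin1 were not analysed here. Of 4 T, B and NK cell markers tested, Cd4 was higher at 1.69 ± 0.41 (SE). The other 3 had a negative difference, and the median of the list was −0.43.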

How the data were processed

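RNA of 12 livers was sequenced from directional mRNA libraries, per the labels' protocols. Tools named in the submitters' processing notes are STAR, HTSeq, cutadapt, edgeR, DESeq2 (1.28.1) and FastQC (0.11.9), with the build GRCm38. Which tool did which step, the annotation and any use of strand in counting are not stated. The deposited values are treated as a score, normalised counts rounded to whole numbers: median-of-ratios factors of the columns were 1.00 to 1.01, and in some libraries small whole numbers never occurred. No value was under 2. Transcript IDs were matched to GENCODE M21 (13200 of 13267). The 12720 genes at 10 or more in 6 or more libraries were fitted with limma 3.58.1 (trend, robust; R 4.3.3) on log2(value + 1) over all 12 libraries with no covariate, with Benjamini-Hochberg adjustment over all of them and a limit of 0.05 on the adjusted p. The fit was tested on simulated data. Members, lists and motifs were chosen with earlier results of these data known.

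Named members are the 3 of smallest p and the one of highest level per length in each subfamily, and the untested one, and other members were named after their values were seen. Of other lists the 3 genes of smallest p are named, with Por, Nr1i2, Nr1i3 and Hnf4a, and some items that this names are not reported here. Depth is known only as the total of normalised values per library. None of 30 same-group pairs agreed within sampling noise (chi-square per gene 17.9 to 119). Exact permutation tests used all 924 splits. Alternatives were other scalings, filters and pseudocounts, limma without trend, array weights, voom, a replicate block and each library left out. Shared 75-base words were counted over GENCODE transcripts, same strand. Plots were made in Python 3.11.15 (matplotlib 3.10.9).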

Additional observations from a re-analysis of the deposited data

Results flagged for a closer look

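In each group of 6 livers, the lowest and the highest log2(value + 1) of each member were checked for a gap to the nearest other liver that is large beside the group's range on that scale (Dixon's 95% critical value). Chance alone gives this in about 1 in 20 groups, and it was seen in 8 of 66. Control replicate 6 stood apart for Cyp2b9 at 456, while the other controls began at 2973. Control replicate 5 was far below the other controls for Cyp2c23 at 4020. In 4-HPAA livers, replicate 3 stood far above the others for Cyp2u1 at 1824 and far below them for Cyp2r1 at 131 and for Cyp2c50 at 11258. Among genes at very low values, 4-HPAA replicate 5 was lowest for Cyp2s1 at 2, control replicate 3 highest for Cyp2t4 at 9, and control replicate 4 lowest for Cyp2d12 at 5.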

How the results depend on the processing

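The count of members past an adjusted p of 0.05 was 0 under every alternative run except without 4-HPAA replicate 4, where it was 2 (Cyp2f2 and Cyp2d40). Over all genes this count was 0 with all libraries, 193 without 4-HPAA replicate 4, 5 without control replicate 1 and 139 with array weights. With 1 library left out, 0 to 2 members passed, 5 to 7 were higher and 4 to 6 lower at an unadjusted p under 0.05, while over all genes 10.4 to 19.6% passed that p. The family sum was 3.31 to 10.9% above controls with 1 library left out and 2.49 to 6.40% under other scalings. The 10 members at an unadjusted p under 0.05 kept their direction under each alternative in which they were tested, 22 for Cyp2d11 and Cyp2s1, which the stricter filter left out, and 23 for the others. All but Cyp2u1 (19 of 23) kept that p there. Small differences changed sign. Cyp2d26 ranged from −0.075 to 0.018 with 1 library left out, above 0 without control replicate 2 and, at 0.0091, without 4-HPAA replicate 1. Cyp2e1 was at −0.012 with array weights. Cyp2g1 was at −0.045 with array weights and ranged from −0.082 (without control replicate 5) to 0.39, with −0.024 without 4-HPAA replicate 3. Cyp2r1 was at 0.10 with array weights and ranged from −0.22 to 0.077 (without 4-HPAA replicate 3). The cause was not tested. With the replicate block, 0 members passed, 6 were higher and 5 lower, and 11 of all genes passed. Correlations of same-numbered livers ran from −0.18 to 0.28, with 3 of 6 best with their own number. These values do not settle whether the numbers are pairs, and the main fit took no pairing. Values of Cyp2d11, Cyp2d12, Cyp2s1 and Cyp2t4 are near the low end of the table, where counts limit precision.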

Other observations

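Among the Y-linked genes read in all 12 livers, 4-HPAA replicate 3, the library apart on the second component, had Ddx3y at 453 while the others ran from 1269 to 2092, Eif2s3y at 939 while the others ran from 1372 to 1801, and Uty at 116 while the others reached 459. In the same library Kdm5d was at 457, within the range of 366 to 595 of the controls.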
